A study of Mus musculus with 2 samples.

Results

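The genes that move salt and acid across the gut epithelium were compared between 1 array of a wild-type (WT) pool and 1 array of an Lrrc19 knockout (KO) pool. The set was named gene by gene and holds 38 genes for sodium, potassium, chloride, and acid-base transport and for the regulators of these steps. A gene was taken in when the platform annotation gave its old or current symbol to a probe set, a group of short probes on the array for 1 transcript. Of the 38 genes, 37 had such a probe set, with 67 probe sets among them, and only Slc4a7 was not analysed here. Over the whole array, 18193 genes could be read. Both pools came from C57BL/6 mice kept specific pathogen free from birth. Each was made from equal parts of RNA of 5 mice, 2 male and 3 female, killed at 6 weeks of age. The WT mice carried no modification that the labels name, and the KO mice were labelled as knockout for Lrrc19, a leucine-rich repeat receptor of gut epithelial cells. How the deletion was made is not described in the text used here, and the study made the line itself. The cells were shaken off the intestine with EDTA, and macrophages, dendritic cells, B cells, and T cells bearing CD4 or CD8 were then removed with magnetic beads. Because mice were pooled, the spread between mice is unknown, and with 1 array per genotype there is no test and no p-value. Every value below compares these 2 pools and has no replicate check.

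Absorption of sodium chloride in the gut takes place along a pair of routes. In the electroneutral route, a sodium-proton exchanger and a chloride-bicarbonate exchanger work side by side in the apical membrane, and in the electrogenic route sodium enters through the epithelial sodium channel ENaC. The sodium-potassium pump in the basolateral membrane drives both. Secretion runs the other way, with chloride brought in by the cotransporter NKCC1, let out through CFTR and other apical channels, and balanced by basolateral potassium channels. Aldosterone raises absorption in the colon, and the peptides guanylin and uroguanylin, acting through cyclic GMP, favor secretion.

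The pools were first checked against their labels. Both probe sets of Lrrc19 were lower in KO, at 905 in WT and 212 in KO on one and at 391 and 20.9 on the other, and whether they lie in the deleted part of the gene is unknown. All 11 epithelial markers examined were at or above the floor, with summed intensities of 102958 in WT and 106046 in KO, so the epithelium that the labels name was detected in both pools. As floor served the middle value of both arrays with control probe sets left out, an intensity of 127 in arbitrary units, and a gene was counted as measured when 1 of the pools reached it. Differences are given on the log2 scale as KO minus WT. Over the 12518 genes measured, their median was 0.01 and their robust SD 0.27, which serves below as a yardstick of array noise and differences between the pools combined. Spike-ins, foreign transcripts put in before hybridization, had 18 probe sets, all higher on the KO array, with a median of 0.50. The scaling between arrays is unknown, and small differences are therefore open to a shift of this size.

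Most salt and proton transport genes differed by less than 1.5-fold between the pools, and a few differed by a wide margin. Atp12a, the catalytic subunit of the colonic proton-potassium pump, was 8.96-fold higher in the Lrrc19 KO pool, the largest increase among all 12518 genes. Fxyd3, a small modulator of the sodium-potassium pump, was 2.55-fold lower. Slc26a3, Slc9a3, Scnn1a, and Ano1 were between 1.73-fold and 1.95-fold higher, and Guca2b, which encodes uroguanylin, was 1.60-fold lower. Of the 37 genes, 33 were measured, each of them reaching the floor on both arrays, and Scnn1b, Scnn1g, Best2, and Slc26a6 were under it in both.

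Among the 33 measured genes, 1 was at least 2-fold higher in the Lrrc19 KO pool, which is 3.03% of them, beside 0.559% of all measured genes. At least 2-fold lower was 1 gene, again 3.03%, beside 0.407%. With the limit set at 1.5-fold, 5 genes were higher (15.2%, beside 2.78% of all genes) and 2 were lower (6.06%, beside 3.4%). The closest to this limit on either side were Guca2b, just past it, and Slc4a2, just short of it at 1.38-fold. The other 26 genes differed by less than 1.5-fold, beside 11745 of the 12518 genes measured. Within 1 robust SD of 0 lay 17 of the 33. The share over all genes was not counted for this, but most genes lie within it by the way this SD is built. The count therefore does not show the set to be unusually even. Over all 33, the median log2 difference was 0.06, beside 0.01 over all genes. It was 0.22 over the 19 transporters and channels, of which 14 were above 0, and -0.07 over the 14 regulators, of which 5 were above 0. Of all measured genes, 52.1% were above 0. The sign of such small medians depends on the scaling. Setting both arrays to the same median gave -0.02 for the 33 genes, 0.14 for the transporters, and -0.16 for the regulators, and centering on the spike-ins gave -0.42, -0.27, and -0.56. A shift of the whole array moves both groups alike, so their order is fixed under these scalings and is not checked by them. Among the other genes of the same pathways, counted below, the order was reversed. Their median was 0.04 over 27 transporters and channels (14 above 0) and 0.12 over 28 regulators (20 above 0). No count here is a test, and the genes were listed with earlier results of these arrays known.

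**Figure D1:**
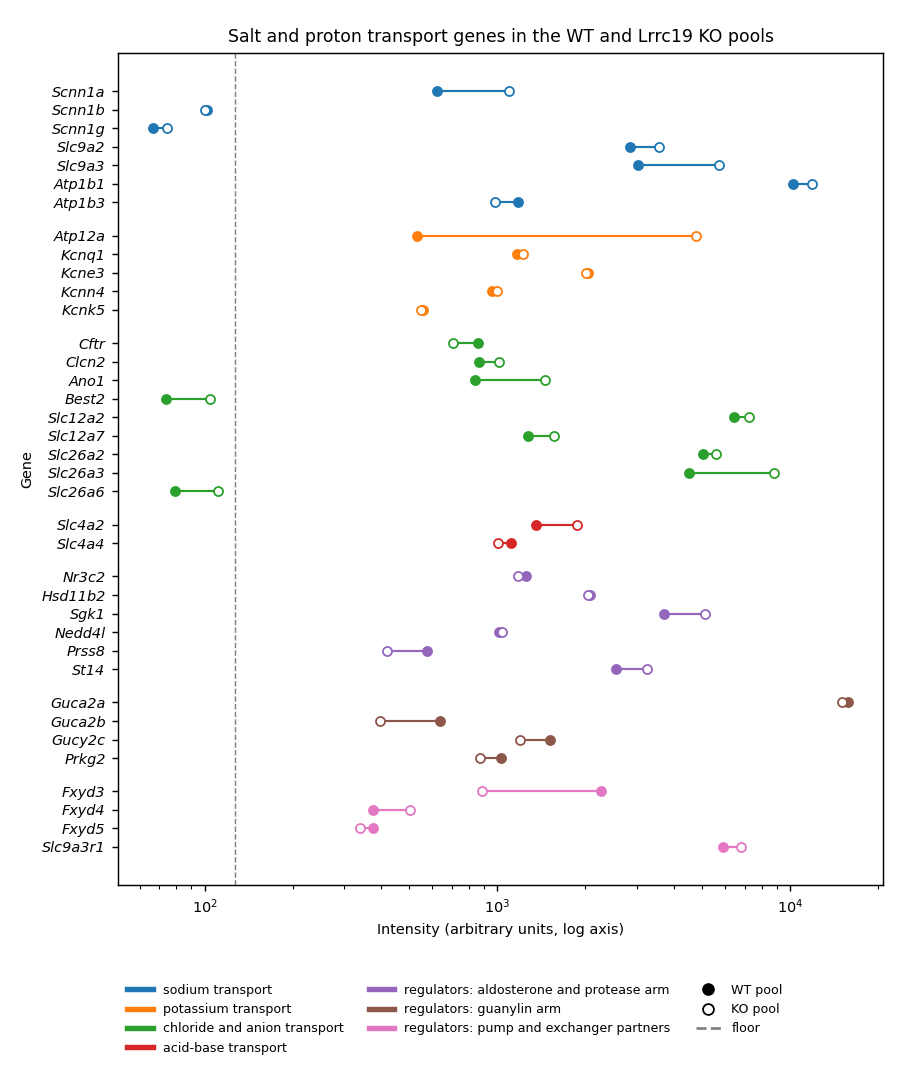
Intensity (arbitrary units, log axis) of the probe set used for each of 37 salt and proton transport genes. Filled symbols are the WT pool and open symbols the Lrrc19 KO pool, 1 array per genotype and no error bars. Colors mark the role of the gene and the dashed line is the floor of 127. Atp12a spans the widest gap (531 in WT and 4760.2 in KO), and Fxyd3 is the widest in the opposite direction (2257 and 886).

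In sodium transport, Slc9a3 and Scnn1a were more than 1.5-fold higher in the Lrrc19 KO pool, and the other genes differed by less. The intensity of Slc9a3, which encodes the apical sodium-proton exchanger NHE3, was 3014 in WT and 5713 in KO (1.90-fold higher, log2 difference 0.92). Its second probe set was dim, at 107 in WT and 142 in KO, and was also higher in KO. Slc9a2, which encodes the related exchanger NHE2, was at 2833 and 3575, a log2 difference of 0.34 that became -0.15 with centering on the spike-ins. Slc5a8, a sodium-coupled carrier of short-chain fatty acids and lactate taken from the other genes of the pathway, was at 2047 and 1846 (-0.15). Scnn1a, the alpha subunit of ENaC, had intensities of 622 (WT) and 1098 (KO) and was 1.77-fold higher. The beta and gamma subunits, which the channel needs for full activity, stayed under the floor, with Scnn1b at 102 and 100.2 and Scnn1g at 66.6 and 74.2. The higher signal was thus seen in the alpha subunit alone, and no fold is given for the other subunits.

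The beta subunits of the sodium-potassium pump differed less. Atp1b1, a beta subunit that carries the pump to the membrane, was at 10242 (WT) and 11902 (KO), a log2 difference of 0.22, and all 5 of its probe sets were higher in KO, by 0.19 to 0.37. Atp1b3, the other beta subunit examined, ran the opposite way, at 1178 and 978 (-0.27). Both differences lie within 1 robust SD. Over the 5 sodium transport genes measured, the median log2 difference was 0.34.

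Potassium transport held the largest difference beside 4 genes that differed little. Atp12a takes up potassium and gives out protons at the apical membrane of the distal colon. Its single probe set was at 531 in WT and 4760.2 in KO, a log2 difference of 3.16, far outside the robust SD of 0.27. The 4 potassium channels of the basolateral side did not share this. Kcnq1, the channel opened by cyclic AMP, was at 1169 (WT) and 1223 (KO), and its partner Kcne3 was at 2042 and 2011. Kcnk5, a pH-sensitive background channel, was at 556 and 549.5. Kcnn4, the calcium-activated channel, was at 962 and 995 on one probe set and at 398 and 288 on the other, so that its direction differed between the probe sets. On the probe sets used, the 4 channels had log2 differences from -0.02 to 0.06. Of the 13 other potassium transport genes listed, 9 were under the floor in both pools and 4 were measured. On the probe sets used, all 4 were lower in KO, by -0.46 to -0.06, with a median of -0.30. Kcnma1 had probe sets of both signs, and Kcnj13 was close to the floor (137 in WT and 120 in KO). The largest of these differences were in Kcnk1 (2362 in WT and 1716 in KO) and Kcnk6 (1421 and 1072), short of 1.5-fold.

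Among the chloride and anion transport genes, Slc26a3 and Ano1 were more than 1.5-fold higher in KO, and no other gene passed this limit. Slc26a3, which encodes the apical chloride-bicarbonate exchanger DRA, was at 4525 in WT and 8844 in KO (1.95-fold higher, log2 difference 0.97). All 4 of its probe sets were higher in KO. The others were at 1814 and 3184 (1.76-fold), at 485 and 1368 (2.82-fold), and at 50.8 and 308. The last was under the floor in WT, so that it was at least 2.42-fold higher when set against the floor. The size of the difference in Slc26a3 therefore depends on the probe set. The probe set used and the one with 2.82-fold can match several transcripts.

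Of the channels and cotransporters linked to secretion, Cftr, the cyclic AMP-regulated chloride channel, was at 859 in WT and 708 in KO (log2 difference -0.28), on a probe set that can match several transcripts. Slc12a2, which encodes NKCC1, was at 6452 and 7235 on the probe set used but lower in KO on its other 2 (3679 and 3022, and 3255 and 2538). Its direction is not settled. Clcn2, a chloride channel of the basolateral membrane, was at 866 and 1009.96 (0.22). Best2, a bicarbonate channel of colonic goblet cells, was under the floor, at 73.5 and 104. Ano1 stood apart from these. This calcium-activated chloride channel, found in secretory epithelia and abundant in the pacemaker cells of gut muscle (interstitial cells of Cajal), was at 842 (WT) and 1456 (KO), or 1.73-fold higher, and at 351 and 570 on its second probe set (1.63-fold higher). The first can match several transcripts. All 10 smooth muscle markers were also higher in KO, with summed intensities of 60020 in WT and 78797 in KO, while Kit, a marker of the pacemaker cells, was at 589 and 529 on one probe set and at 164 and 177 on the other. The part of these cells in the value of Ano1 was not tested. In such pools, more cells of a type and more RNA per cell cannot be told apart.

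The remaining chloride and anion carriers were less far apart. Slc26a2, a sulfate transporter whose product feeds the sulfation of mucins, was at 5029.8 (WT) and 5574 (KO), and all 3 of its probe sets were higher in KO, by 0.15 to 0.63 on the log2 scale. Slc12a7, a potassium-chloride cotransporter, was at 1274 and 1555 on the probe set used and at 205 and 198 on the other. Slc26a6, an anion exchanger of the small intestine, was under the floor, at 79.3 and 111. Over the 7 chloride and anion transport genes measured, 6 were above 0 on the probe sets used, with a median of 0.22, beside 52.1% of all genes. These 6 include Slc12a2 and Slc12a7, whose probe sets had both signs. With centering on the spike-ins, the median was -0.27, so no common direction is settled.

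**Figure D2:**
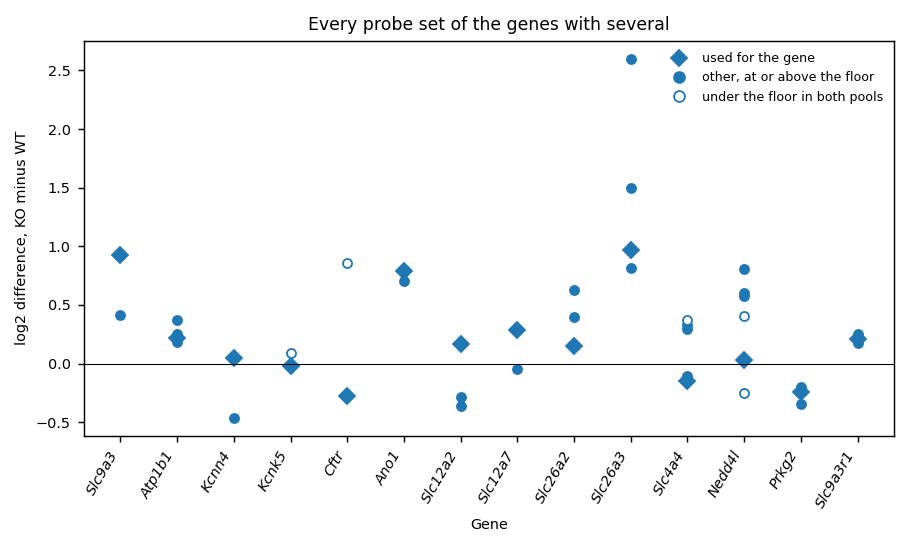
Log2 difference (KO minus WT) of every probe set of the 14 salt and proton transport genes with more than 1. Diamonds are the probe sets used for the gene, filled circles other probe sets that reached the floor in at least 1 pool, and open circles those under it in both. The 4 probe sets of Slc26a3 all lie above 0, the highest of them under the floor in WT so that its height is not a measured size, whereas those of Slc12a2 lie on both sides (0.17, -0.28, and -0.36).

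Agreement between probe sets was counted for the genes that had several. Of the 14 such genes, 12 had at least 2 at or above the floor. All probe sets at or above the floor had the same sign in 8 of them (Ano1, Atp1b1, Nedd4l, Prkg2, Slc26a2, Slc26a3, Slc9a3, and Slc9a3r1). Both signs occurred in 4 (Kcnn4, Slc12a2, Slc12a7, and Slc4a4). Atp12a, Scnn1a, Guca2b, and Fxyd3 each rest on a single probe set, and nothing else on the array checks them.

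Slc9a3 and Slc26a3 make up the electroneutral route, and their promoters are shown because both genes were higher by a like factor, beside that of Fxyd3, the gene with the largest decrease. The sequences are those of RefSeq on build GRCm38.p6, each of 300 bases, from 250 before to 50 after the start of the gene and printed 5′ to 3′ on the strand of the gene. Promoter entries were found for 25 of the 38 genes. Atp12a and Scnn1a were among those with no entry. The promoter of Slc9a3 lies at chr13:74121163-74121462 on the plus strand, that of Slc26a3 at chr12:31437969-31438268 on the plus strand, and that of Fxyd3 at chr7:31076648-31076947 on the minus strand. Capitals mark every match on either strand to 4 short motifs. These were the TATA box (TATAAA), the GC box (GGGCGG), a motif of CDX and posterior HOX factors (TTTATNG), and the half-site of steroid receptors (AGAACA).
Slc9a3: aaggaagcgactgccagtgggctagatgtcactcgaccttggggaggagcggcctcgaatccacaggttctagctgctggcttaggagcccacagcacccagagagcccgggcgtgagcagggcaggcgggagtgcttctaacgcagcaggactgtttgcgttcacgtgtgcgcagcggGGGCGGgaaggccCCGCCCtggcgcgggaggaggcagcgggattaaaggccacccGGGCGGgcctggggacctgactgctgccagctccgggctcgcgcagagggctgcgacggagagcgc
Slc26a3: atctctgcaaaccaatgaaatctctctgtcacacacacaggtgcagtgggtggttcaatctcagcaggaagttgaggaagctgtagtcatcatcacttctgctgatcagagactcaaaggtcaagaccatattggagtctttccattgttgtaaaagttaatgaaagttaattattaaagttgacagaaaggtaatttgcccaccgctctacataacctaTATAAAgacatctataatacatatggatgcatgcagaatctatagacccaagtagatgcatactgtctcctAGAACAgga
Fxyd3: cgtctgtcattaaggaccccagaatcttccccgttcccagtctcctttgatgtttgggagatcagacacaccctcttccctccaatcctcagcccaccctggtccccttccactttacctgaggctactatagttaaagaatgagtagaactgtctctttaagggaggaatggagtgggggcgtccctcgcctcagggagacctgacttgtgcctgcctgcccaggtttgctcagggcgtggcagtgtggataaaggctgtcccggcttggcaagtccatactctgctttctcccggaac

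The promoters of the paired exchangers had no motif in common. In Slc9a3, 3 GC boxes were found, starting at bases 180, 193, and 235 of the printed sequence, and none of the other motifs. In Slc26a3, a TATA box started at base 221 and a steroid receptor half-site at base 292, with no GC box. No motif was found in the Fxyd3 window. Of all 32851 RefSeq promoters of this length, 35.7% held a GC box, 13.6% a TATA box, 19.0% the half-site, and 10.9% the CDX and HOX motif. Of the 35 promoters of the salt and proton transport genes, 20 held a GC box, 5 the half-site, 4 a TATA box, and none the CDX and HOX motif. Some genes have several promoters here, Sgk1 the most, so these are counts of promoters and not of genes. These matches describe letters and not binding, and a missing match says only that the letters are absent from this window.

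Acid-base transport rested on 2 measured genes. Slc4a2, which encodes the basolateral chloride-bicarbonate exchanger AE2, was at 1356 in WT and 1867 in KO (1.38-fold higher, log2 difference 0.46). Slc4a4, which encodes the sodium-bicarbonate cotransporter NBCe1, was at 1111 and 1003 (-0.15) on the probe set used. Its other probe sets at or above the floor gave -0.10, 0.33, and 0.29, so that no direction was settled for it.

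The genes of the aldosterone arm, which controls ENaC, showed no common direction. The mineralocorticoid receptor gene Nr3c2 was at 1249 in WT and 1176 in KO. Hsd11b2, whose enzyme keeps glucocorticoids from this receptor, was at 2065 and 2038. Sgk1, a kinase induced by aldosterone that keeps ENaC at the surface, was at 3708 and 5104 (1.38-fold higher, log2 difference 0.46). Nedd4l, the ubiquitin ligase that removes ENaC, was even on the probe set used (1014 and 1038). Of its dimmer probe sets, 2 were higher in KO by 0.58 and 0.60, and another, under the floor in WT, was at least 1.44-fold higher. The proteases that cut and activate ENaC differed in direction, with the prostasin gene Prss8 at 575 and 421 (-0.45) and the matriptase gene St14 at 2539 and 3255 (0.36). Of these 6 genes, 3 were above 0, none passed 1.5-fold, and the median was 0.01.

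All 4 guanylin arm genes of the set were lower in the Lrrc19 KO pool, by different amounts. Guca2b was at 637 (WT) and 398 (KO), the widest gap of the arm (1.60-fold lower, log2 difference -0.68). Guca2a, which encodes guanylin, the form of the colon, was at 15777 and 15109.8 (-0.06), nearly the same in both pools. Gucy2c, which encodes the receptor of both peptides, was at 1515 and 1192 (-0.35). Prkg2, which encodes the cyclic GMP-dependent kinase that acts on CFTR and NHE3, was at 1030.2 and 869 (-0.25), and all 3 of its probe sets were lower in KO, by 0.20 to 0.35 in size. The median of the 4 genes was -0.30. The other genes listed for cyclic GMP signaling ran the other way, with 4 of 4 measured above 0 and a median of 0.24. These were Prkg1, the related kinase of smooth muscle (305 and 365), Pde5a, which breaks down cyclic GMP (1563 and 2033, with 1 of 3 probe sets lower), Npr2, a natriuretic peptide receptor (170.1 and 198), and Abcc4, an exporter of cyclic nucleotides (231 and 241). None of them passed 1.5-fold. Prkg1, Npr2, and Abcc4, like Guca2a and Prkg2, lay within 1 robust SD of 0. All 4 differences of these other genes were smaller than the spike-in shift of 0.49, so their sign depends on the scaling. Guca2b, Gucy2c, and Prkg2 stayed below 0 under all scalings tried, whereas Guca2a was at 0.06 when the arrays were centered on control genes. That centering, a shift of -0.12, was the largest one upward, so larger upward shifts were not tried.

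The partners of pumps and exchangers held the largest decrease. Fxyd3 was at 2257 in WT and 886 in KO, a log2 difference of -1.35, and ranked 18 from the lowest among the 12518 genes. The other FXYD proteins examined did not share it. Fxyd4, a colonic FXYD protein that raises the affinity of the pump for sodium, was at 377 and 502 (0.41), and Fxyd5 was at 377 and 339 (-0.15). Slc9a3r1, which encodes the scaffold protein NHERF1 that binds NHE3 and CFTR, was at 5893 and 6819, and its 3 probe sets were higher in KO by 0.18 to 0.25. Relative to Slc9a3 at 0.92, the scaffold therefore differed little.

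**Figure D3:**
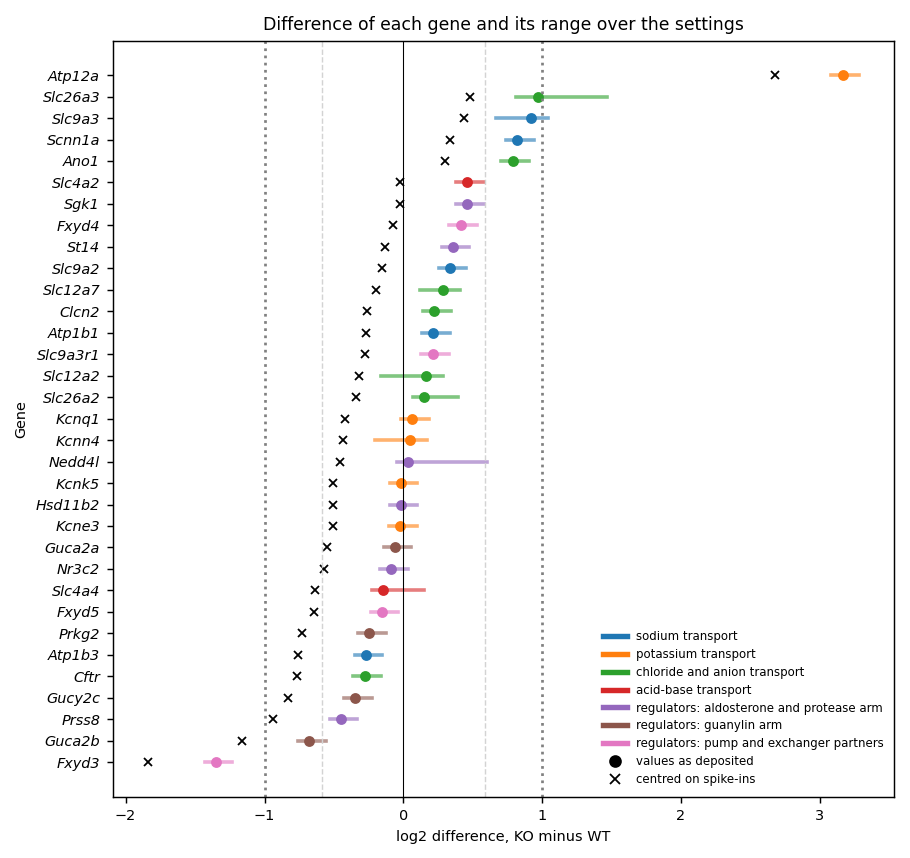
Log2 difference (KO minus WT) of the 33 salt and proton transport genes measured, with the values as deposited (points), the range over the other settings (bars; for Slc26a3 the upper end averages in a probe set under the floor in WT), and the value with the arrays centered on the spike-ins (crosses). Dotted and dashed lines mark 2-fold and 1.5-fold. Only Scnn1a, Slc9a3, Atp12a, Ano1, and Slc26a3 stay to the right of 0 throughout, and 8 genes stay to the left. The scalings tried lower the differences further than they raise them, so staying to the left is the easier condition.

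Because the scaling of the arrays is not known, the direction of each gene was compared over 10 other settings. In every setting in which they were measured, 5 genes were above 0, namely Atp12a (2.68 to 3.28), Slc26a3 (0.48 at the lowest, with its upper end drawn from an average that takes in a probe set under the floor in WT), Slc9a3 (0.43 to 1.04), Scnn1a (0.33 to 0.94), and Ano1 (0.30 to 0.91). Below 0 throughout were 8 genes, namely Fxyd3 (-1.84 to -1.23), Guca2b (-1.16 to -0.56), Prss8, Gucy2c, Cftr, Atp1b3, Prkg2, and Fxyd5. The sign of the other 20 differed between settings. The shifts tried were one-sided, with 0.49 and 0.08 lowering all differences and only -0.12 raising them. A gene stays below 0 more easily than above it, so the counts of 8 and 5 are not a like comparison. Leaving out the centering on the spike-ins, 15 genes, Sgk1 and Slc4a2 among them, were above 0 throughout.

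Other genes of the same pathways were counted in the same way. Of 80 that were listed by role, 73 had a probe set and 55 were measured. None was at least 2-fold higher or lower, 3 were at least 1.5-fold higher (5.45%, beside 2.78% of all genes) and 2 at least 1.5-fold lower (3.64%, beside 3.4%), and the median log2 difference was 0.05. The largest increases were those of Fxyd6, another FXYD protein (249.9 in WT and 489.9 in KO, 0.97), Slc8a1, a sodium-calcium exchanger (353 and 586, 0.73), and Ano9, of the anoctamin family (138 and 216, 0.64). The largest decreases were those of Slc12a8, of the cation-chloride cotransporter family (1348 and 675, just short of 2-fold), Klk1, a kallikrein protease (10026 and 5834, -0.78), and Slc51a, a subunit of the organic solute transporter that exports bile acids (1436 and 1041, -0.46). The second probe set of Slc12a8 was also lower (181 and 97.1). Of the 4 probe sets of Klk1, 3 were lower and 1 was higher (511 and 579.6). Stomach-type proton pump genes Atp4a and Atp4b were under the floor in both pools, so that Atp12a was the only proton-potassium pump catalytic subunit measured.

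Markers of gut regions differed between the pools as well, and several of the transport genes are known to vary along the gut. Of 11 listed colon and posterior gut markers, 7 were measured, with a median log2 difference of 0.41, 3 at least 2-fold higher in KO and none lower. Hoxb13, a posterior homeobox gene, was at 259 in WT and 738 in KO, Hoxd13 at 42.4 and 255 (at least 2.00-fold higher against the floor), and the colonic water channel Aqp8 at 2019 and 4873. The second probe set of Hoxd13 was under the floor in both pools, at 70.5 and 57.0. Car4 was higher on both of its probe sets (6274 in WT and 8359 in KO, and 4661 and 7385). Car1 (22420 and 18909) and Cyp2c55 (15108.6 and 13203) ran the other way, and Hoxd10 (189 and 199) was nearly even. The summed intensity of the list, carried by its brightest genes, was 46312 in WT and 46535 in KO. Of 13 small intestine markers, 9 were measured, with a median of -0.17, 1 at least 1.5-fold lower (Fabp6, 251 and 151) and none higher. Their sums were 12776 in WT and 14153 in KO, most of it from Fabp2 (9536 and 11164.5). Atp12a, Slc26a3, Slc9a3, and Scnn1a were higher and Guca2b was lower in pools whose posterior markers differed in both directions. The part of the regional makeup of the pools in the values of these transport genes was not tested. No part of the intestine is named in the labels.

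Other tissues were present too. Smooth muscle markers had log2 differences of 0.26 to 0.65 on the probe sets used, most of them smaller than the spike-in shift of 0.49. Measured leukocyte markers (3 of 6 listed) had sums of 3514 in WT and 3056 in KO, and measured neuron and glia markers (2 of 5) sums of 508 and 524. Adipocyte markers were lower in KO, at 313 and 24.4 for Adipoq and 1372 and 648 for Fabp4, with 2 of 5 listed measured. The 11 epithelial markers had a median of 0.05 lay between -0.46 and 0.28, and the part of the other tissues in the differences of the transport genes was not tested.

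**Figure D4:**
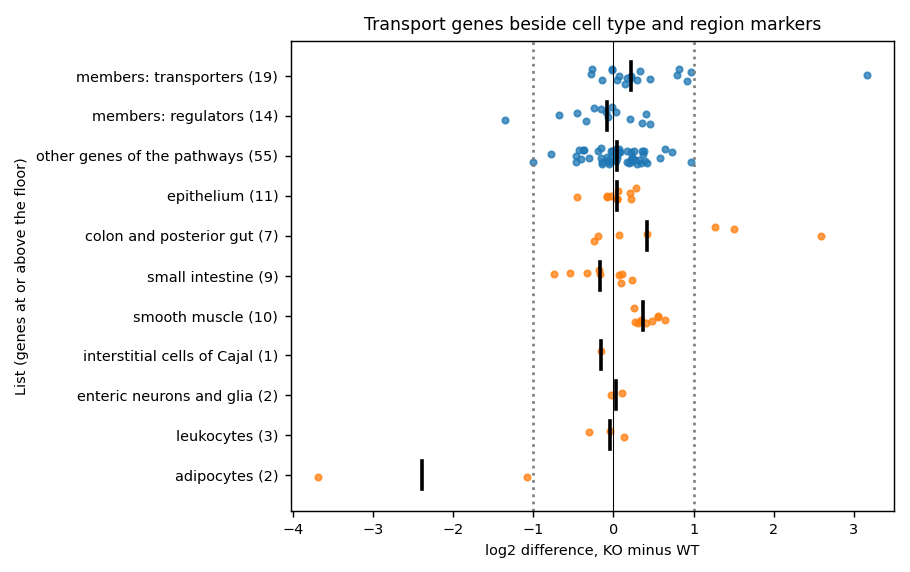
Log2 difference (KO minus WT) of each gene at or above the floor in the salt and proton transport set (transporters and regulators apart), in other genes of the same pathways, and in marker lists of cell types and gut regions. Points are genes, short black lines are medians, dotted lines mark 2-fold, numbers in parentheses are genes, and vertical jitter carries no meaning. The medians of the colon and posterior gut markers (0.41) and the smooth muscle markers (0.37) lie to the right of that of the transporters (0.22). The points overlap, from -0.25 to 2.59 for the colon and posterior gut markers and from -0.28 to 3.16 for the transporters.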

How the data were processed

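Pooled RNA of each genotype, WT or Lrrc19 KO, was run on 1 Affymetrix mouse array. The authors deposited intensities, linear values from 1 to 25842, with medians of 124 (WT) and 131 (KO). The submitters' processing notes name RMA, without a version, which usually returns log2 values. No quantile normalization is visible, and how the arrays were scaled is not given in these sources. The number of arrays limits the precision.

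Values were raised to at least 1 and put on the log2 scale (Python 3.11.15, pandas 2.3.3). Of 45101 probe sets, 64 controls, 932 with several symbols, and 9160 unnamed here were left out. Symbols of the other 34945 were updated through gene identifiers with RefSeq (34741 matched). A gene was read from its brightest probe set by the average of the arrays. All 37 salt genes with a probe set are given, and of other pathway and marker genes those past 2-fold, the 3 largest differences in each direction, and examples for context. The genes and lists were chosen with earlier results of these data known. Calling past 2-fold was tried on simulated arrays with larger changes, which does not check the 1.5-fold calls. Settings varied were the probe set, the floor, the scaling, and the pseudocount (32).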

Additional observations from a re-analysis of the deposited data

How the results depend on the processing

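Atp12a stayed at least 2-fold higher in KO, and Fxyd3 at least 2-fold lower, in all 10 other settings. Each has 1 probe set well above the floor, so the settings for the probe set and the floor returned the same value. The shifts of the whole array, at most 0.49, were too small to bring Atp12a under 2-fold. For Fxyd3, the largest upward shift tried was -0.12. These settings are therefore a weak check of either gene. The count of genes at least 2-fold higher was 2 with all probe sets of a gene averaged (Slc26a3 was added, with 1 of its probe sets under the floor in WT) and 3 with the arrays centered on 8 control genes, a shift of -0.12 (Slc26a3 and Slc9a3 were added). With this centering, 1 gene was at least 1.5-fold lower. Centering on the spike-ins, a shift of 0.49, gave 2 genes at least 2-fold lower, 1 at least 1.5-fold higher, 9 at least 1.5-fold lower, and a median log2 difference of -0.42, beside -0.48 over all genes. It follows from the construction of this setting that all differences drop by the same amount. Otherwise these counts stayed within 1.5 times, and the median lay between -0.02 and 0.18. With multi-transcript probe sets left out, Nedd4l was at 0.60. Cftr was not measured in that setting or with its probe sets averaged. No paired analysis was possible because each genotype had 1 pool, and for the same reason no replicate could be left out. The 3′ over 5′ ratio, a sign of RNA integrity, of Gapdh was 1.26 (WT) and 1.5 (KO), that of Actb 1.75 and 1.77, and that of Tfrc 4.14 and 5.89, and its part in the differences was not tested.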
